A study of Mus musculus with 10 samples.

Results

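DNA methylation was examined at 8 genes of cytotoxic lymphocytes and natural killer (NK) cells, Gzma, Gzmb, Prf1, Nkg7, Klrb1c, Ncr1, Klrd1 and Klrk1, in lung DNA from 10 mice. The genes were chosen by name, and every 1000 bp window that overlapped a gene span of GRCm38 (mm10) extended by 5 kb on each side was taken. This gave 19 of the 446336 windows, from 4 of the 8 genes: 2 at Gzmb, 6 at Prf1, 7 at Nkg7 and 4 at Klrb1c. Gzma, Ncr1, Klrd1 and Klrk1 had no window within that reach. The mice were 8-week-old female BALB/c mice in 3 groups: Saline (control, n = 3), OVA (n = 3), sensitized and challenged with ovalbumin (OVA) as an asthma model, and DSE (n = 4), given the same OVA plus Descurainia sophia seed extract. OVA was injected into the peritoneum 2 times (50 µg with alum, 7 days apart) and then given into the nose for 4 days (25 µg). DSE was dosed at 200 mg/kg for 7 days, and the labels call this group Herb. DNA came from whole lung, so each level is an average over all cell types, and a change in the share of a cell type cannot be told apart from a change of methylation within cells.

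Cytotoxic lymphocytes, which are NK cells and killer T cells, carry granules whose contents they release onto target cells. Perforin (Prf1) opens pores in the membrane of the target, and granzymes (Gzma, Gzmb) are serine proteases that enter and start cell death. Nkg7 is a membrane protein of these granules, and Klrb1c, Ncr1 (NKp46), Klrd1 (CD94) and Klrk1 (NKG2D) are surface receptors of NK cells. Methylation of the cytosine in CG pairs (CpGs) near the start of a gene is often low in cells that express it.

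The windows with data held little of these genes. None of the 8 had a window within 1 kb of a start site, against 76.7% of the 21887 protein-coding genes, and 1 of 8, Prf1, had a window on its span, against 81.6%. RefSeq promoters of 300 bp held a median of 2.5 CpGs over the 8 promoters found for 7 of the genes and 7 CpGs over all 32851 promoters. At most 3 CpGs were present in 62.5% of the members' promoters and in 31.4% of all promoters. Of the 19 windows, 4 lay on Prf1, 6 upstream and 9 downstream of a gene. In 9 windows the DNA was that of a neighbouring RefSeq gene or pseudogene, and 6 were intergenic. Neighbouring windows overlap by 500 bp, and 16 of the 19 held a set of calls of their own.

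The stretches below are from the GRCm38 RefSeq genome, with CpGs in capitals. Those of Prf1 and Klrb1c are shown because levels differed widely between places at 1 locus. The Gzmb windows were at similar levels. The 2 Prf1 stretches lie in intron 1 and in the coding part of exon 2, within neighbouring 500 bp segments that were methylated to different degrees. The segment of the intron stretch has 9 CpGs and also holds the start of exon 2, so the stretch has no level of its own. The Klrb1c stretch downstream of the gene was almost unmethylated, and the Gzmb stretch is the part shared by both Gzmb windows. They held 5, 13, 6 and 3 CpGs.
Prf1 intron 1, chr10:61299541-61299803, plus strand: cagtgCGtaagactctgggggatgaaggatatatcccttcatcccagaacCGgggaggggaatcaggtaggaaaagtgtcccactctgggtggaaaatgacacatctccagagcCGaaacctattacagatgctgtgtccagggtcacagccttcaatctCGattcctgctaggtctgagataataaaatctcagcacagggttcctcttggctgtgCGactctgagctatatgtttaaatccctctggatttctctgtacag
Prf1 exon 2, chr10:61300021-61300320, plus strand: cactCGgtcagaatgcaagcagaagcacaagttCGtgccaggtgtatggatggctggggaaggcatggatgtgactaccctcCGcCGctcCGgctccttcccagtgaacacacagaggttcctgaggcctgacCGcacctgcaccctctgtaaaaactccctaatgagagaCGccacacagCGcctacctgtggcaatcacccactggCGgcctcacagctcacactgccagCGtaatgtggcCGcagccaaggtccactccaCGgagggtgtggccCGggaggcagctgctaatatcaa
Klrb1c downstream, chr6:128773162-128773461, plus strand: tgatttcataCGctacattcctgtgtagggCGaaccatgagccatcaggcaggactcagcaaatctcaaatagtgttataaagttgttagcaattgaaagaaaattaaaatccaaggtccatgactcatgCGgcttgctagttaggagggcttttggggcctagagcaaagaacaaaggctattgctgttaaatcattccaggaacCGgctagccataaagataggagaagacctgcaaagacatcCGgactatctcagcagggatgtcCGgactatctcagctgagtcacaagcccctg
Gzmb upstream, chr14:56266022-56266313, plus strand: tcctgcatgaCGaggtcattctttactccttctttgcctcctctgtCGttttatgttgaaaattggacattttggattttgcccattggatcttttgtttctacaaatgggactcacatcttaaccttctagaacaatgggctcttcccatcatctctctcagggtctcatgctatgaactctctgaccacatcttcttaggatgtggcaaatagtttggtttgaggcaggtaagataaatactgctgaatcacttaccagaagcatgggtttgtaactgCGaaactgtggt

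Every one of the 19 windows had at least 20 CpG calls in all 10 mice, with 46 to 2930 calls per mouse and window. A call is 1 read at 1 CpG, and the methylation level is the percentage of calls that were methylated. Over all windows the mice had 306656737 to 410836272 calls. The mean level over all windows was 1.22 percentage points higher in OVA than in Saline mice (two-sided exact permutation p = 0.1, which is the lowest value possible with 3 mice on each side). DSE minus OVA was -0.127 points (exact permutation p = 0.743). These values set the scale for the differences at single genes.

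**Figure D1:**
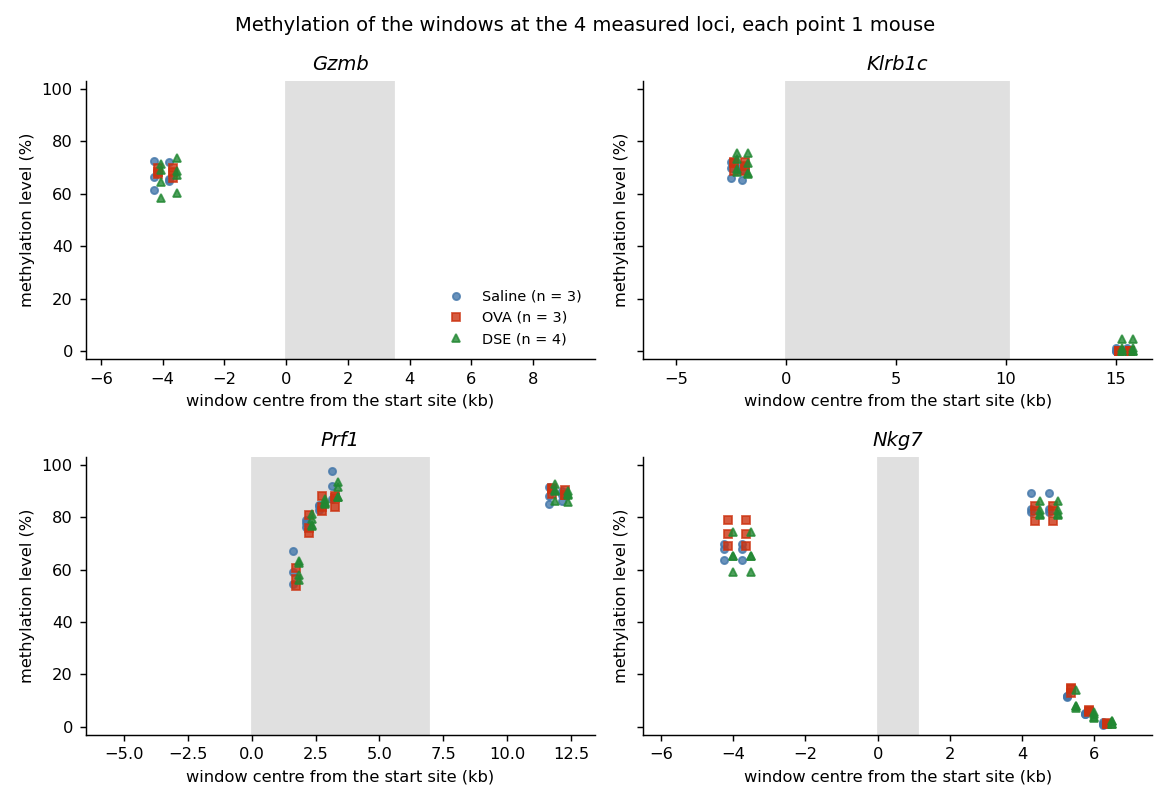
Methylation level (%, vertical axis) of the 19 windows at Gzmb, Klrb1c, Prf1 and Nkg7 against the distance of the window centre from the gene's start site (kb, in the direction of transcription). Each point is 1 mouse, small sideways offsets separate the groups, the grey band is the gene span, and no mouse group stands apart from both others in any window.

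None of the 19 windows passed, in any pair of the 3 groups, the call for a differentially methylated region (DMR), a logistic likelihood ratio test with adjusted p under 0.01 and a pooled difference of at least 10 percentage points. The same call was made at 7.31% of all tested windows for OVA vs. Saline, 1.62% for DSE vs. OVA and 8.01% for DSE vs. Saline. It was also absent in all OVA-exposed mice (OVA and DSE) vs. Saline, where 7.34% of all windows were called. The comparisons share mice and are not independent. Pooled differences ranged from -5.50 to 7.16 points in OVA vs. Saline, from -7.87 to 3.98 in DSE vs. OVA and from -2.83 to 2.77 in DSE vs. Saline. Their medians of 0.66, 0.42 and 0.11 points stood beside 0.73, -0.04 and 0.72 points over all windows.

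With mice as replicates, limma on M-values (log2 of methylated over unmethylated calls) also called 0 of 19 windows at adjusted p under 0.05, in each of the 4 comparisons. It called 2.92%, 0.355%, 6.22% and 7.60% of all windows in OVA vs. Saline, DSE vs. OVA, DSE vs. Saline and OVA-exposed vs. Saline. At an unadjusted limma p under 0.05 there were 0, 2, 0 and 0 of the 19 windows. The lowest adjusted limma p for OVA vs. Saline was 0.245 and that for DSE vs. OVA was 0.309. The mice of the groups did not overlap in 2 of 19 windows in OVA vs. Saline (background 27.0%), 0 in DSE vs. OVA (10.2%), 1 in DSE vs. Saline (24.1%) and 0 in OVA-exposed vs. Saline (14.2%).

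Prf1, the pore-forming protein, had the best coverage on a gene. Its 4 windows on the span began 1165 to 2665 bp after the start site. The window nearest to the start site had levels of 67.1%, 54.5% and 58.9% in the Saline mice, 53.6%, 56.3% and 60.5% in the OVA mice, and 58.0%, 55.8%, 63.1% and 62.5% in the DSE mice. One Saline mouse was the highest of all 10 and the groups overlapped. The calls of the 4 windows add up so that they can be split into 500 bp segments without shared calls. The segment with the end of intron 1 and the start of exon 2 was at 60.2% ± 6.36 (SD, n = 3) in Saline, 56.8% ± 3.46 (n = 3) in OVA and 59.9% ± 3.52 (n = 4) in DSE. The following segment, nearly all of it exon 2, was at 83.2% ± 1.14, 84.7% ± 3.10 and 85.1% ± 1.30. Across the 10 mice the first segment ranged from 53.6% to 67.1% and the second from 81.9% to 88.1%, so these did not overlap in any mouse.

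**Figure D2:**
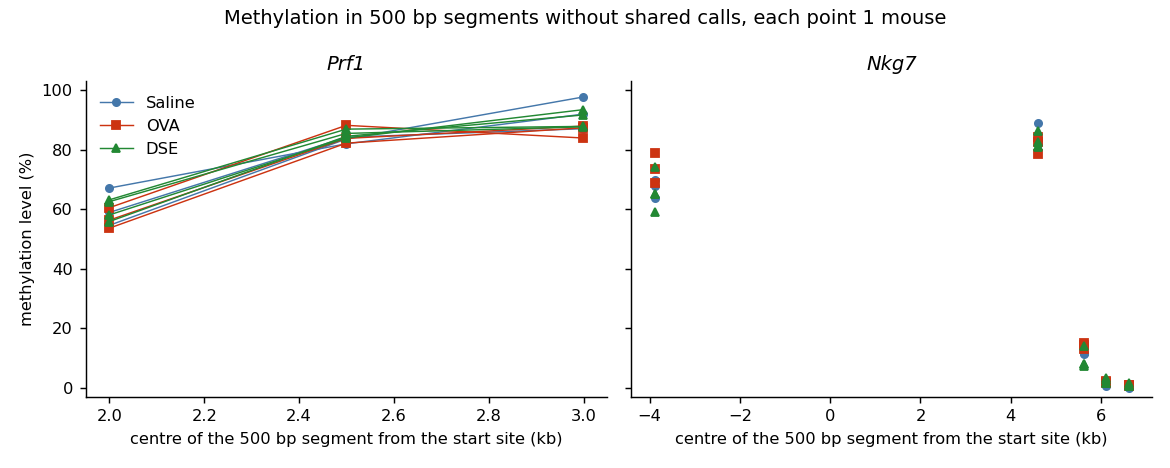
Methylation level (%, vertical axis) in 500 bp segments at Prf1 and Nkg7 against the distance of the segment centre from the start site (kb). Each point is 1 mouse and lines join the segments of 1 mouse at Prf1, where the level rises from 53.6% to 67.1% in the first segment to 81.9% to 88.1% in the second in all 10 mice.

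The third Prf1 segment, in the intron after exon 2, had the largest difference of the locus between OVA and Saline. Its levels were 91.9%, 97.6% and 87.0% in the Saline mice, 87.3%, 87.9% and 83.9% in the OVA mice, and 93.4%, 91.6%, 87.8% and 87.6% in the DSE mice. The pooled difference of OVA minus Saline was -5.50 points (likelihood ratio test, adjusted p = 0.138; limma adjusted p = 0.245; exact permutation test, two-sided, p = 0.3). The groups overlapped. Depth here was low and uneven, 62 to 212 calls, and the DSE mice had 2.39 times the mean calls of the other mice, against a median ratio of 1.09 over all windows. In DSE vs. Saline the window over exon 2 did not overlap between groups: 82.6%, 84.6% and 84.3% in the Saline mice against 85.1%, 85.4%, 87.0% and 85.7% in the DSE mice. That difference was 1.81 points (adjusted p = 0.0417 in the likelihood ratio test, adjusted p = 0.471 with limma, and exact permutation p = 0.0571, the lowest value possible with 3 and 4 mice). The 2 windows downstream of Prf1, on the pseudogene Rpl27a-ps1, were at 85.1% to 92.7% in all mice.

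Gzmb encodes granzyme B, and its 2 windows lay 3167 and 3667 bp upstream of the start site. In the nearer one the Saline mice were at 65.8%, 64.9% and 72.0%, the OVA mice at 70.0%, 68.1% and 66.0%, and the DSE mice at 73.6%, 67.1%, 68.7% and 60.1%. The DSE mice held both the highest and the lowest value, and all groups overlapped. The farther window differed by 1.34 points in OVA vs. Saline (likelihood ratio test, adjusted p = 0.815) and by -2.17 in DSE vs. OVA (adjusted p = 0.701). Calls in the DSE mice were 1.75 and 1.89 times those of the other mice in these windows. The part of this in the levels was not tested.

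Nkg7 is a short gene with no window on it. Upstream, 2 windows with identical calls in Lim2 held 76 to 180 calls per mouse. The Saline mice were at 63.6%, 69.7% and 67.8%, the OVA mice at 78.9%, 68.9% and 73.5%, and the DSE mice at 65.0%, 65.2%, 58.9% and 74.1%. These were the largest pooled differences among the 19 windows, 7.16 points in OVA vs. Saline (adjusted p = 0.103) and -7.87 points in DSE vs. OVA (adjusted p = 0.0767, both likelihood ratio test). Neither passed, and the groups overlapped.

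Downstream of Nkg7 the levels fell steeply towards the start site of Etfb. The 500 bp segment in Cldnd2 was at 84.7% ± 3.79 in Saline, 81.8% ± 2.90 in OVA and 82.6% ± 2.46 in DSE. The segment after it, with 12 CpGs, held no calls. The next segment with calls was at 11.7% ± 0.200, 14.1% ± 1.09 and 9.30% ± 3.11. It was followed by segments at 0.646% to 3.26% and 0.118% to 1.66%, so the decline lay between segments whose centres are 1000 bp apart. In the segment near 12%, the Saline mice were at 11.8%, 11.5% and 11.8%, the OVA mice at 12.9%, 14.5% and 15.0%, and the DSE mice at 7.84%, 8.16%, 13.9% and 7.25%. The Saline and OVA mice did not overlap, and the DSE mice overlapped with both groups. The pooled difference of DSE minus OVA was -5.25 points (likelihood ratio test, adjusted p = 1.58e-06), which is under the 10 points of the call. This window was singled out after its values were seen. With mice as replicates the same difference gave a limma adjusted p of 0.309 and an exact permutation p of 0.114. These windows are on other genes, and nothing was measured on Nkg7 itself.

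Klrb1c, which encodes a surface receptor of NK cells, had very different levels on its 2 sides. The upstream windows began 1360 bp from the start site. In the nearer one the Saline mice were at 65.2%, 68.9% and 70.6%, the OVA mice at 70.5%, 72.1% and 68.6%, and the DSE mice at 75.6%, 68.1%, 71.7% and 67.5%. The groups overlapped, and OVA minus Saline was 2.35 points (likelihood ratio test, adjusted p = 0.475). The 2 downstream windows, intergenic and with identical calls, were at 0% in 3 OVA mice, 2 Saline mice and 2 DSE mice. The other mice were at 1.39%, 1.28% and 4.65%. The depth was 46 to 86 calls, and 0 of 46 calls allows a level of up to 6.52%, taken as 3 calls of the total (the 95% Wilson interval reaches 7.71%). The highest mouse, with 4 of 86 calls, had a 95% Wilson interval of 1.82% to 11.4%, counting error only. In Saline mice this level stood at percentile 0.32 of all windows.

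Averaged over each locus, none of the 4 genes differed between groups at the threshold of limma. Prf1 was at 81.7% ± 0.0744 in Saline, 80.7% ± 1.15 in OVA and 82.0% ± 1.07 in DSE. Gzmb was at 67.2% ± 4.58, 68.3% ± 1.51 and 66.6% ± 5.55. Nkg7 was at 45.9% ± 0.592, 47.5% ± 2.00 and 44.6% ± 1.29, and Klrb1c at 34.6% ± 1.56, 35.3% ± 0.877 and 36.3% ± 1.14. The loci of Nkg7 and Klrb1c mix partly or highly methylated windows with nearly unmethylated ones, so their means describe no single place. The lowest limma p among the loci was 0.0232, for Nkg7 in DSE vs. OVA (-2.90 points, SE 1.07, adjusted p = 0.420). No locus passed adjusted p under 0.05 in limma, against 6.57% of 37236 gene loci for OVA vs. Saline, 0.150% for DSE vs. OVA, 10.6% in DSE vs. Saline and 13.7% in OVA-exposed vs. Saline. The median difference of all loci was 0.98, 0.02, 1.05 and 0.99 points in these comparisons.

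**Figure D3:**
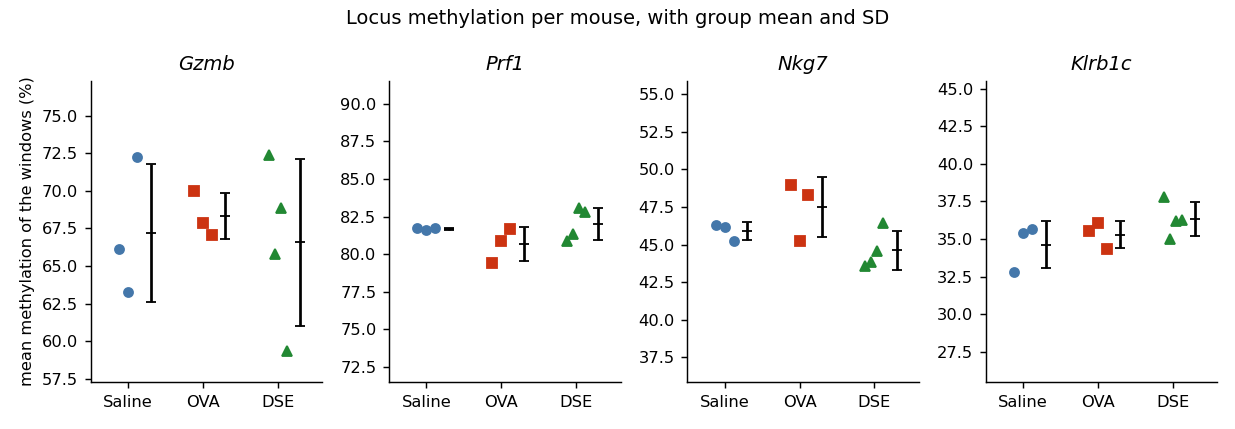
Mean methylation of the windows (%) at the 4 loci in each mouse, with the group mean and SD (horizontal mark and bar). Each panel spans 20 percentage points, and the 3 groups overlap at each of the 4 loci.

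The genes whose mean level over the 10 mice followed the mean of the 4 loci most closely were Gm21936, Cfap410, Tssk2, n-TLcaa4 and Cd79b, with Pearson r of 0.868, 0.862, 0.851, 0.838 and 0.837. They were picked from 28652 genes with at least 5 windows and no shared window. The members and these genes share libraries and depth, so the values are descriptions only.

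The reach was then widened to 10 kb, a choice made after the values at 5 kb were seen. Within 10 kb there were 53 windows, 34 of them beyond 5 kb, including 2 at Ncr1 and 2 at Klrd1. DMR calls were made at 4 of 51 tested windows in OVA vs. Saline (7.84%), 1 of 53 in DSE vs. OVA (1.89%) and 5 of 51 in DSE vs. Saline (9.80%), shares close to the 7.31%, 1.62% and 8.01% of all windows. They lay near Prf1, Klrb1c and Klrd1.

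Downstream of Prf1, the window 8317 bp beyond the gene was at 22.6%, 22.4% and 21.02% in the Saline mice, 31.7%, 30.5% and 36.6% in the OVA mice, and 33.5%, 38.3%, 31.8% and 37.8% in the DSE mice. All OVA-exposed mice were above all Saline mice. The pooled difference was 10.97 points in OVA vs. Saline (limma adjusted p = 0.0428) and 13.7 points in DSE vs. Saline (limma adjusted p = 0.016). The window after it, overlapping by 500 bp, was called in the same direction. It was at 25%, 15.4% and 14.6% in the Saline mice, 35.3%, 27.5% and 43.03% in the OVA mice, and 32.9%, 33.8%, 34.3% and 41.01% in the DSE mice, and the OVA-exposed mice were again above all Saline mice. Its difference was 17.1 points in OVA vs. Saline (limma adjusted p = 0.0562, which did not pass) and 17.6 points in DSE vs. Saline (limma adjusted p = 0.0318). The overlapping window 7817 bp from the gene was called in DSE vs. Saline alone of the 4 comparisons, at 10.01 points (limma adjusted p = 0.0765, which did not pass). Upstream of Klrb1c, the window 7360 bp away was at 67.3%, 69.8% and 70.0% in the Saline mice, 61.3%, 55.8% and 58.5% in the OVA mice, and 62.6%, 54.5%, 56.7% and 57.0% in the DSE mice. All OVA-exposed mice were below all Saline mice there. The differences were -10.5 points in OVA vs. Saline (limma adjusted p = 0.0631, which did not pass) and -11.3 points in DSE vs. Saline (limma adjusted p = 0.0315), and the exact permutation p was 0.1 and 0.0571, the smallest possible in both. The overlapping window 6860 bp away was called lower in OVA vs. Saline, with a difference of -21.003 points (limma adjusted p = 0.198). It held 39 to 50 calls a mouse and was at 54%, 40.9% and 35.9% in the Saline mice, 19.1%, 20.4% and 31.7% in the OVA mice, and 55.6%, 41.5%, 31.9% and 19.05% in the DSE mice. The DSE mice overlapped both other groups there, and DSE minus OVA was 13.8 points, which was not called. None of these windows of Prf1 and Klrb1c was called in DSE vs. OVA.

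For Klrd1, which pairs with NKG2 proteins to bind MHC class I, the nearest window lay 6092 bp away. It was at 54.3%, 50% and 47.7% in the Saline mice, 50%, 48.0% and 53.6% in the OVA mice, and 71.8%, 62.4%, 68.1% and 73.5% in the DSE mice. DSE mice stood above all others, by 18.1 points against OVA (likelihood ratio test, adjusted p = 0.000495; limma adjusted p = 0.0537) and by 18.2 points against Saline (limma adjusted p = 0.018). Depth moved with the group: the DSE mice had 186 to 337 calls and the others 25 to 92. Compared with the overlapping window before it, the DSE mice held 57 to 121 additional calls, of which 80.7% to 92.6% were methylated. Among the 6 other mice, 1 Saline mouse held 16 additional calls and 5 held none. In the earlier window the DSE mice were at 60.2%, 49.6%, 60.7% and 66.4%, and the OVA mice at 50%, 48.0% and 53.6%, and the groups overlapped. The part of the depth in this result was not tested. The called Klrd1 window was also the nearest window of Klrk1, at a distance of 28323 bp. The nearest windows of Ncr1, 5817 bp away, and of Gzma, 36824 bp away, were not called in any comparison.

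**Figure D4:**
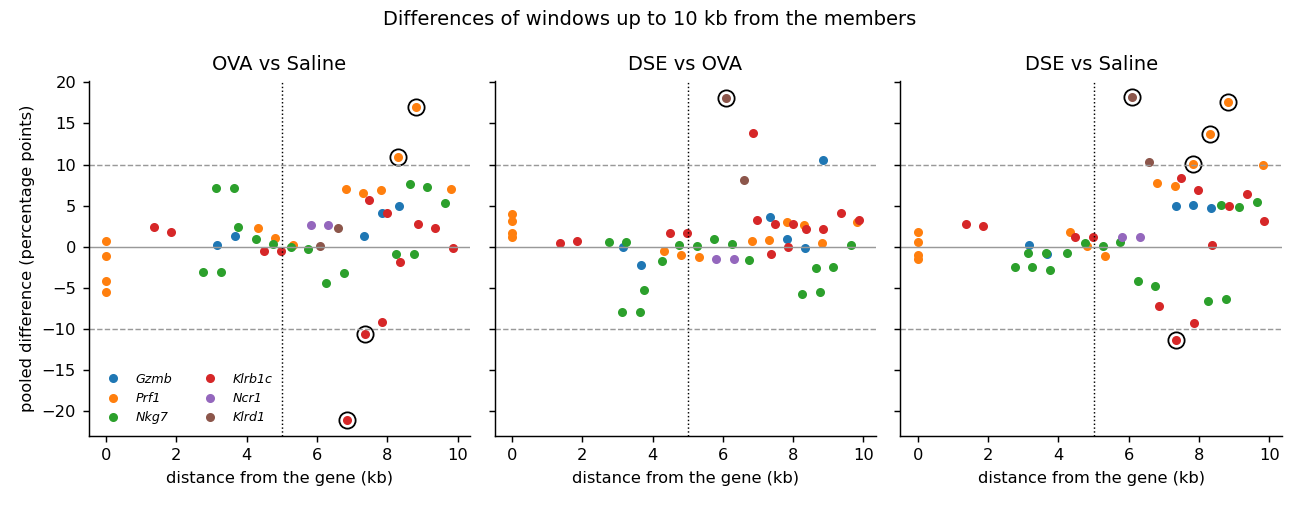
Pooled difference in methylation (percentage points) of windows up to 10 kb from the members against the distance from the gene (kb), for 3 comparisons. Circles mark DMR calls, the dotted line is the 5 kb reach and dashed lines are 10 points; all calls lie beyond 5 kb.

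Genes in broader lists, not all of them particular to cytotoxic cells, carried calls. The 19 member windows are too few to set their 0 calls apart from the 7.31% of all windows. Lists of 7 to 22 genes each were set beside the members, and the share of their windows called in OVA vs. Saline was 13.6% for granzymes and granule proteins (4 higher, 12 lower of 118 tested), 17.0% for activating receptors and adaptors (16 higher, 42 lower of 342), 25.5% for death ligands and effector cytokines (2 higher, 11 lower of 51) and 9.43% for NK lineage regulators (40 higher, 13 lower of 562). Among all windows 4.75% were higher and 2.56% lower. Locus means of limma were lower in OVA at Cst7, an inhibitor of lysosomal proteases, from 71.1% ± 1.73 to 58% ± 2.04 (adjusted p = 0.00798), and lower at Slamf7, at Syk, Lcp2, Tnf and Cd27, and at the adaptors Tyrobp and Hcst, which share 16 of 19 windows. Loci higher in OVA were those of Gzmm, a granzyme (4.28 points, limma adjusted p = 0.0309), Klrg1, an inhibitory receptor (5.50 points, limma adjusted p = 0.01402), and the transcription factors Runx3 (4.50 points, limma adjusted p = 0.0371) and Prdm1 (2.67 points, limma adjusted p = 0.0471). Gzme, another granzyme, was at 60.9% ± 2.23 in Saline, 47.9% ± 5.21 in OVA and 63.2% ± 1.87 in DSE (limma adjusted p = 0.0224 for OVA vs. Saline and 0.0436 for DSE vs. OVA). It rested on 4 windows with as few as 10 calls in a mouse before the minimum of 20 was applied. In DSE vs. OVA it was the 1 locus of 13 in its list that passed in limma. No locus of any other list did, and 0.150% of all loci passed. The loci of Cst7, Slamf7, Tyrobp and Gzmm were at 56.9%, 40.2%, 29.3% and 49.8% in DSE. Their OVA means were 58.0%, 39.8%, 30.6% and 49.0%. Granule release machinery was called at 11.8% of windows and inhibitory and lectin-like receptors at 8.33%. Pan-leukocyte markers were called at 28.6% of windows (10 higher, 32 lower of 147), eosinophil and mast cell markers at 10.0%, neutrophil markers at 10.3%, epithelial markers at 11.7%, T cell markers at 9.91%, macrophage and dendritic cell markers at 9.0%, B cell markers at 0.699%, and endothelial and stromal markers at 11.7% (29 higher, 1 lower of 256). Their part in the values of the members was not tested.

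**Figure D5:**
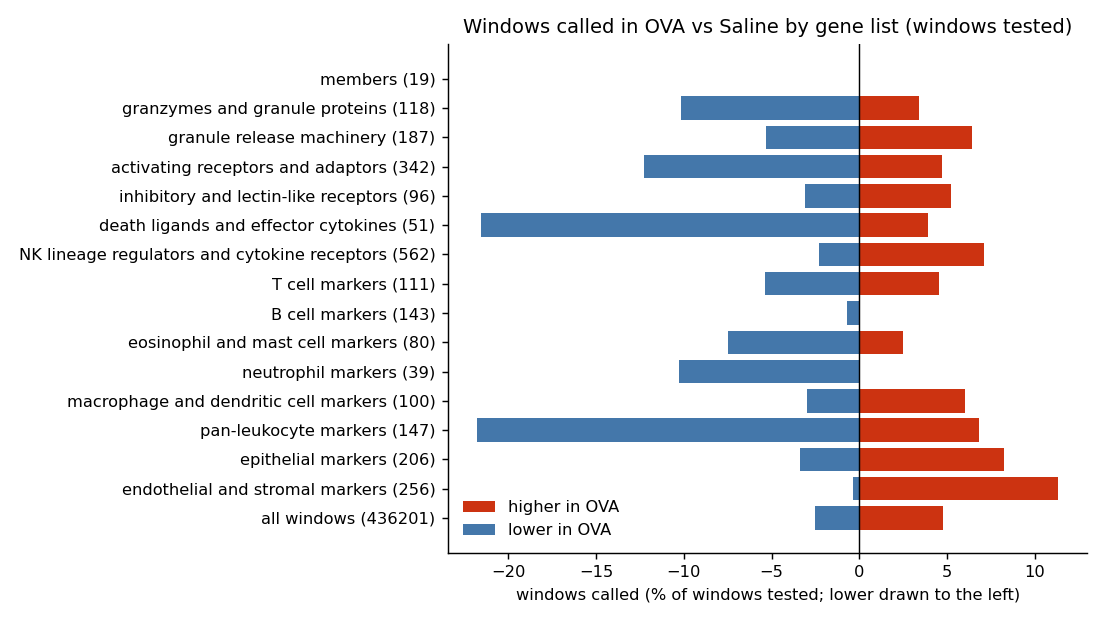
Percentage of tested windows called in OVA vs. Saline for each gene list (windows tested in parentheses), higher in OVA drawn to the right and lower to the left. The members have no call among 19 windows, beside 4.75% higher and 2.56% lower among all windows.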

How the data were processed

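Lung DNA of 10 mice was profiled by SureSelect Methyl-seq. Reads were trimmed, mapped to mm10 and summed in windows of 1000 bp that start every 500 bp; the submitters' processing notes name cutadapt 1.10, Bismark 0.19.0 and methylKit 1.0.0, and the methods name other versions. The deposited values are raw counts of CpG calls, methylated and unmethylated, without normalization. Depth was 306656737 to 410836272 calls per mouse, so precision at a window depends on its calls; intervals cover counting error only. Labels called the DSE group Herb. The members and gene lists were chosen with earlier results of these data known. Named windows were by rule those with the largest OVA vs. Saline difference at each gene; the other windows and segments were described after their values were seen.

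Windows needed 20 calls in a mouse and 2 such mice per group. The likelihood ratio test pools calls, so it ignores spread between mice; limma 3.58.1 in R 4.3.3 was therefore run on M-values (pseudocount 1) and on locus means, with all 10 mice. Benjamini-Hochberg adjustment covered all windows or loci. Tests were checked on simulated data: with a wide spread between mice the likelihood ratio test called unchanged windows too, limma missed most of the changed windows, and the overdispersed F test called none of them. Permutation tests were exact and two-sided. Replicate mice of a group differed by more than counting error. Labels do not say more about the source of each library, so limma and permutation p-values measure the spread between these samples. Those of the likelihood ratio test measure counting error only.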

Additional observations from a re-analysis of the deposited data

Results flagged for a closer look

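One of 23 sets of 4 DSE values held a mouse far from the others: in the window 3755 bp downstream of Nkg7, on Cldnd2, DSE replicate 3 was at 13.9% beside 7.84%, 8.16% and 7.25%, a gap of 0.864 of the group's range. Chance alone marks about 1 in 20 such groups. Without this mouse the DSE values would all lie under the Saline values of 11.5% to 11.8%; the groups of 3 were not examined in this way.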

How the results depend on the processing

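No window of the members was called with a minimum of 50 calls or none, 20 points, unweighted means, scaled calls, at least 2 CpGs, windows that do not overlap, no extension or 2 kb, limma, or without any 1 mouse (lowest 0, highest 0). With no minimum, 20 points, at least 2 CpGs, windows that do not overlap, no extension or 2 kb, the pooled differences stayed those of the main test. None of these reached the 10 points of the call (largest 7.87, in DSE vs. OVA), so those counts of 0 were fixed in advance and add nothing. The F test with overdispersion also gave 0, but it missed the changed windows of the simulated data, so this says nothing. Within 10 kb, added after seeing the data, 2 windows were higher and 2 lower in OVA vs. Saline, 1 was higher in DSE vs. OVA, 4 were higher and 1 lower in DSE vs. Saline, and 3 were higher and 1 lower in OVA-exposed vs. Saline; the wider reach itself adds these windows.

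Mice with the same replicate number did not deviate together (r from -0.027 to 0.078, 0 of 9 pairs over 0.1), so the numbers do not pair them. With the replicate block, limma called 0 member windows, but also only 0, 13, 2 and 0 of all windows in OVA vs. Saline, DSE vs. OVA, DSE vs. Saline and OVA-exposed vs. Saline, so this says nothing about the members. The block turned the locus difference of Gzmb to 0.695 points in DSE vs. OVA and 1.80 in DSE vs. Saline, and of Nkg7 to -0.149 in OVA-exposed vs. Saline. No locus passed under any alternative (lowest adjusted p = 0.181), and 11 of 100 locus values changed sign, the cause of which was not tested. Subtracting the mean of each mouse gave Gzmb -0.12 and Klrb1c -0.556 in OVA vs. Saline, Prf1 -0.743 in DSE vs. Saline, and Gzmb -0.92 and Nkg7 -1.002 in OVA-exposed vs. Saline. Pooled calls gave Nkg7 0.75 in DSE vs. Saline, and M-values 0.085 on the log2 scale. Windows that do not overlap gave Prf1 0.456 in OVA-exposed vs. Saline.

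Leaving out 1 mouse each turned 15 of 120 locus values. The range was -0.87 to 3.62 for Gzmb and -0.234 to 1.19 for Klrb1c in OVA vs. Saline, -3.67 to 0.695 for Gzmb in DSE vs. OVA, -2.60 to 1.89 for Gzmb and -0.00434 to 0.722 for Prf1 in DSE vs. Saline, and -1.73 to 2.75 for Gzmb and -0.214 to 0.722 for Nkg7 in OVA-exposed vs. Saline. Single windows ranged as follows. The Gzmb window went from -0.961 to 4.30 in OVA vs. Saline, -4.19 to 0.00482 in DSE vs. OVA, -3.13 to 2.13 in DSE vs. Saline and -2.56 to 2.69 in OVA-exposed vs. Saline, where unweighted means gave 0.178 and scaled calls 0.365. The Klrb1c upstream window went from -1.43 to 1.51 in DSE vs. OVA. The Nkg7 upstream window went from -3.30 to 1.18 in DSE vs. Saline. The third Prf1 segment went from -4.61 to 1.28 in DSE vs. Saline and -5.44 to 0.445 in OVA-exposed vs. Saline. Promoter differences could not be fitted, since no member has a window within 1 kb of a start site; reaching 2 kb upstream gave Klrb1c 1.79 points in OVA vs. Saline (limma adjusted p = 0.682).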
